A study of Rattus norvegicus with 12 samples.

Results

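The genes described here are 6 amino acid transporter genes, Slc7a6, Slc3a2, Slc7a5, Slc7a1, Slc7a11 and Slc38a2, in cultured rat heart muscle cells exposed to steroids with or without the receptor blocker RU486. They are 6 of the 14217 genes named on the array, each represented by its probe set (a group of short probes for a single transcript) of highest mean signal, and all 6 passed the filter on low signal. The members were selected on their signals over all 12 arrays and on their steroid and RU486 differences. Those differences are therefore given below as descriptions with intervals and without p-values. The cells were primary cultures from the ventricles of 1-day-old Wistar rats, enriched for cardiomyocytes by how quickly cells attach to the dish and held in OPTI-MEM for 24 h. They then received the ethanol vehicle, cortivazol (CVZ, a synthetic glucocorticoid), corticosterone (COR, the main glucocorticoid of the rat) or aldosterone (ALD, the main mineralocorticoid) for 3 h. In the RU, CVZ+RU, COR+RU and ALD+RU groups RU486 at 10 µM, which blocks the glucocorticoid receptor, was given first, and the RU group had no ligand after it. Doses of the 3 ligands are not given in the sources used here. Vehicle, CVZ, COR and ALD had 2 arrays each, a first and a second experiment giving 1 each (n = 2). The RU486 groups were run only in the second, with 1 array each (n = 1). Nothing in the labels says whether the experiments came from separate cell preparations, so intervals and p-values measure the spread between these arrays, which may be technical.

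Cells cannot make essential amino acids and import them through membrane carriers of several families. The product of Slc3a2 (the heavy chain of CD98) brings a light chain to the cell surface, and the light chain sets what is carried: the product of Slc7a5 takes up large neutral amino acids such as leucine, that of Slc7a6 exchanges cationic for neutral amino acids, and that of Slc7a11 exchanges cystine for glutamate. Slc7a1 (arginine and lysine uptake) and Slc38a2 (sodium-driven uptake of small neutral amino acids) encode carriers that need no heavy chain. Several of these genes are textbook targets of ATF4, a transcription factor made when amino acids are short or the cell is stressed, and leucine entering the cell is read by the mTORC1 kinase complex.

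The stretches around the start sites of the members were searched for 3 motifs, since some members differed with a ligand, some with RU486 and some with both. Promoters of all 6 genes, 250 bases before and 50 after the start site, were matched in the RefSeq promoter table of the rat build GRCr8. The motifs, read on both strands, were the C/EBP-ATF response element bound by ATF4 (TGATGNAAN), a glucocorticoid response element core (ACANNNTGT) and an antioxidant response element core (TGACNNNGC). Of 33469 promoters of this length in the table, 3.97%, 6.86% and 12.1% held a match to the first, the second and the third. Among the members only Slc7a1 held the C/EBP-ATF letters, starting 30 bases before the start site. Antioxidant element letters occurred in Slc7a1 (minus strand) and Slc38a2 (plus strand), and the glucocorticoid letters occurred in none of these 6 windows. A match describes letters and not a bound site. Start sites were taken as annotated and were not checked, so a window need not hold the promoter in use. The windows of Slc7a6, Slc3a2 and Slc7a1 are shown 5′ to 3′. Slc7a6 had the greatest CVZ difference, Slc3a2 was high after both CVZ and RU486, and in Slc7a1 capitals mark the C/EBP-ATF match. These windows lie at chr19:50993256-50993555 on the plus strand, chr1:215048015-215048314 on the minus strand and chr12:11664238-11664537 on the plus strand.
Slc7a6: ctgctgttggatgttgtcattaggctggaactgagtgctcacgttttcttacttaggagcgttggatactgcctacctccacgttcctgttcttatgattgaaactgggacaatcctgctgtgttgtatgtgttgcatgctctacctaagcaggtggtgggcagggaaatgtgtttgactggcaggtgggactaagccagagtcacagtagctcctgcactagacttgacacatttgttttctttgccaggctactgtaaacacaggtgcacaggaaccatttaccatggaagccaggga
Slc3a2: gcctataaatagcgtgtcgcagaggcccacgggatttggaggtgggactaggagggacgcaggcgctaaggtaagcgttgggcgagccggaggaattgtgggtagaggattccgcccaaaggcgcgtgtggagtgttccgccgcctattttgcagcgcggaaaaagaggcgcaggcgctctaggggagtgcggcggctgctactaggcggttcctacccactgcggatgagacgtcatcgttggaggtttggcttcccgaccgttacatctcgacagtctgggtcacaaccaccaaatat
Slc7a1: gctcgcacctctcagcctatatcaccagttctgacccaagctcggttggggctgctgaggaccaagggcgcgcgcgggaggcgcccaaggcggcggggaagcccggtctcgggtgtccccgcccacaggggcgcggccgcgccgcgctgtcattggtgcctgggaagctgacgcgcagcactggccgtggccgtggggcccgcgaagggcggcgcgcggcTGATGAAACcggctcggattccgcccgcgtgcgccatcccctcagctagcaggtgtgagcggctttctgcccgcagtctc

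Signals below are in units of the array's own median. They are comparable for 1 gene between arrays and not between genes, because probe sets differ in brightness. Exposure was checked with Fkbp5, a textbook glucocorticoid receptor target, which was 4.54 ± 0.14 (log2 difference ± SE) higher with CVZ than with vehicle, 3.87 ± 0.14 with COR and 2.69 ± 0.14 with ALD (limma, adjusted p 2.3e-11, 1.2e-10 and 1.4e-08). With RU486 it read 2.40 (RU), 4.25 (CVZ+RU), 4.85 (COR+RU) and 5.33 (ALD+RU), against 2.17 with vehicle in the same experiment. Without RU486 it read 43.5 and 43.8 with CVZ, 26.64 and 28.25 with COR, and 10.94 and 13.42 with ALD. The summed signal of 10 cardiomyocyte markers was 2007 to 2651 on every array. That of 8 fibroblast markers was 420 to 519 in the first experiment and 201 to 229 in the second. The sum of 8 macrophage markers was 9.53 to 10.5 in the first and 6.75 to 8.02 in the second. For 5 endothelial markers it was 9.49 to 13.7 and 4.04 to 6.64. Of these, 6 macrophage and 3 endothelial markers passed the filter, with Cd14 up to 4.52 and Tek up to 7.85. C1qb, Cd163, Vwf and Cldn5 were under the filter. Fibroblast transcripts were thus present in all cultures. In such bulk RNA a smaller share of a cell type and less of a transcript per cell cannot be told apart. Array medians before the division were 21.1 to 28.7 on 7 of the 8 arrays without RU486, 33.7 on the ALD array of the second experiment and 35.4 to 37.7 on the 4 RU486 arrays.

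**Figure D1:**
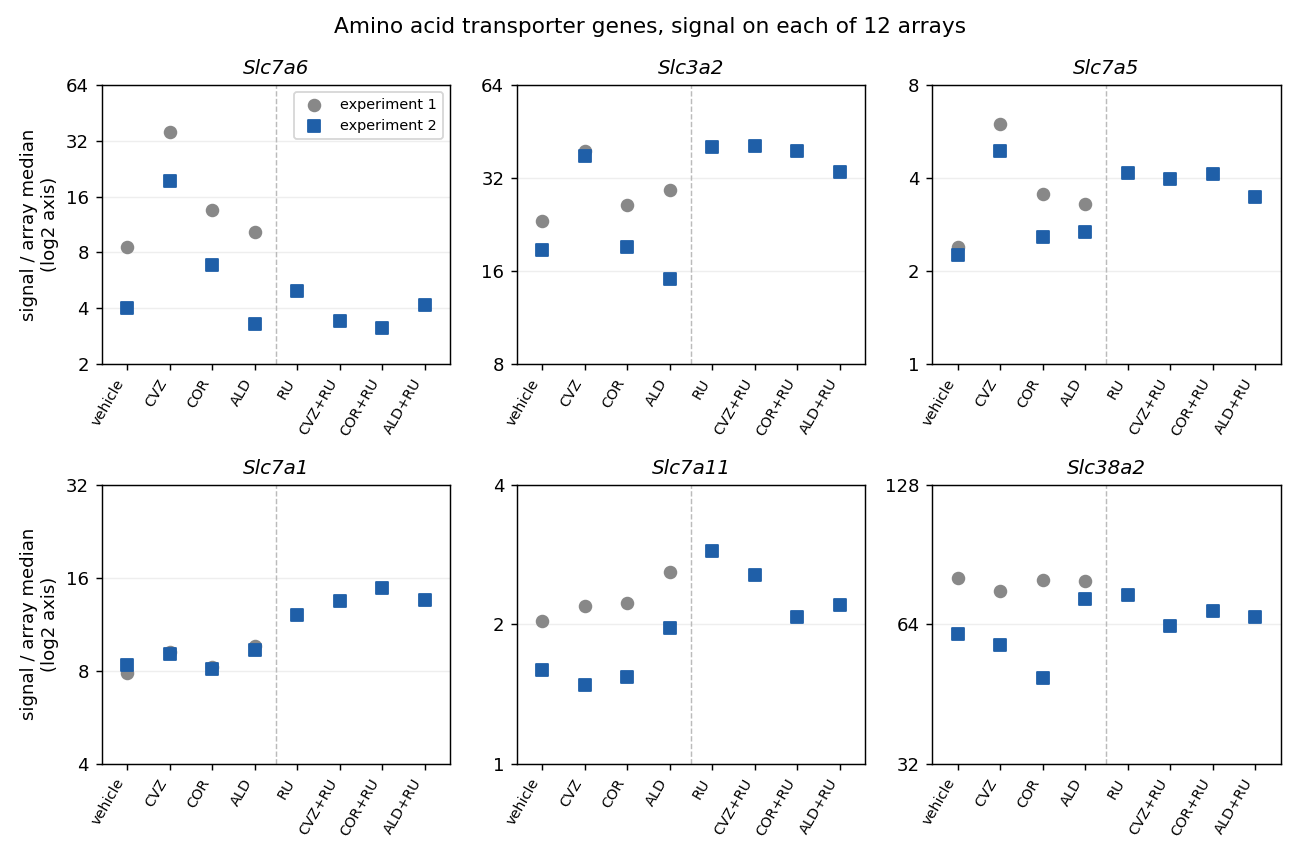
Signal of each member on every array, in units of the array's median, on a log2 axis. Circles are the first experiment and squares the second, and groups right of the dashed line received RU486. Slc7a6 stood at 35.7 and 19.4 with CVZ and at 3.12 to 4.94 on the RU486 arrays. The 4 RU486 arrays of Slc7a1, at 12.1 to 14.8, lay above all others of that gene, and the share of probe sets so arranged was not counted.

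Slc7a6, the cationic and neutral amino acid exchanger of the CD98 family, was high with CVZ and intermediate with COR. Its signal in the first experiment was 8.53 with vehicle, 35.7 with CVZ, 13.55 with COR and 10.25 with ALD. In the second experiment it was 4.02 with vehicle, 19.4 with CVZ, 6.83 with COR and 3.26 with ALD. Both CVZ arrays lay above the other 10 arrays, an arrangement found for 716 (3.84%) of the 18625 probe sets tested. COR was above vehicle within each experiment, by 1.58-fold and 1.69-fold, yet the COR array of the second experiment was below the vehicle array of the first. The fit, in which experiment was a block, gave 2.15 (95% interval 1.81 to 2.50) on the log2 scale for CVZ against vehicle, which is 4.45-fold. For COR it gave 0.71 (0.36 to 1.06) and for ALD -0.02 (-0.36 to 0.33). ALD was 0.26 above vehicle in the first experiment and -0.30 from it in the second. Signals were lower in the second experiment as a whole, by a fitted -1.14 (-1.39 to -0.89), and the fibroblast sums given above moved the same way. Their part in that difference was not tested.

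With RU486 present Slc7a6 stayed near the vehicle level, whatever the ligand. The 4 RU486 arrays read 4.94 (RU), 3.39 (CVZ+RU), 3.12 (COR+RU) and 4.13 (ALD+RU), against 4.02 with vehicle in the same experiment. Of these, 3 lay within the range of the vehicle and ALD arrays (3.26 to 10.25) and COR+RU lay below it. CVZ+RU stood -2.36 (-2.81 to -1.92) from CVZ, COR+RU -1.03 (-1.48 to -0.59) from COR and ALD+RU 0.09 (-0.36 to 0.53) from ALD. RU486 without a ligand gave 0.33 (-0.12 to 0.77) against vehicle. Set against RU rather than vehicle, CVZ+RU stood at -0.53 (-1.03 to -0.04), COR+RU at -0.65 (-1.14 to -0.16) and ALD+RU at -0.25 (-0.75 to 0.24). Each of these sets 1 array against 1 array, and the intervals are not adjusted for the number of probe sets. In the second experiment the order of levels was CVZ, COR, RU, ALD+RU, vehicle, CVZ+RU, ALD and COR+RU, and from the second place on neighbours were separated by less than the error that the fit's 95% interval gives a difference between single arrays of this gene.

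Slc3a2, which encodes the heavy chain shared by the light chains of Slc7a5, Slc7a6 and Slc7a11, was high both with CVZ and with RU486. In the first experiment its signal was 23.2 with vehicle, 39.1 with CVZ, 26.1 with COR and 29.2 with ALD. In the second it was 18.6 with vehicle, 37.5 with CVZ, 19.1 with COR and 15.1 with ALD. The RU486 arrays read 40.3 (RU), 40.5 (CVZ+RU), 39.0 (COR+RU) and 33.4 (ALD+RU). The 2 CVZ arrays therefore lay within the range of the 4 RU486 arrays, and the other 6 arrays without RU486 lay below it. Against vehicle the fitted differences were 0.88 (0.57 to 1.19) for CVZ, 0.10 (-0.21 to 0.41) for COR, 0.01 (-0.30 to 0.33) for ALD and 1.17 (0.78 to 1.57) for RU486 alone. Adding RU486 to CVZ gave 0.30 (-0.09 to 0.70), whereas adding it to COR gave 1.03 (0.63 to 1.43) and to ALD 0.89 (0.49 to 1.29). The RU486 difference on CVZ was smaller than that on vehicle by a fitted -0.87 (-1.41 to -0.33). With RU486 present, CVZ+RU stood 0.01 (-0.43 to 0.45) from RU, COR+RU -0.05 (-0.49 to 0.39) and ALD+RU -0.27 (-0.71 to 0.17).

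Slc7a5, the leucine carrier and partner of Slc3a2, had a similar shape. It read 2.39 with vehicle, 5.98 with CVZ, 3.54 with COR and 3.28 with ALD in the first experiment, and 2.25, 4.87, 2.57 and 2.68 in the same order in the second. The RU486 arrays read 4.15 (RU), 3.98 (CVZ+RU), 4.11 (COR+RU) and 3.46 (ALD+RU). The CVZ arrays were the highest of the 12, and of the RU486 arrays only ALD+RU lay below an array of COR in the first experiment. The fit gave 1.19 (0.84 to 1.55) for CVZ against vehicle, 0.37 (0.01 to 0.73) for COR and 0.35 (-0.01 to 0.70) for ALD. RU486 alone gave 0.96 (0.50 to 1.42) against vehicle, and its addition to CVZ gave -0.29 (-0.75 to 0.16), a difference between these backgrounds of -1.25 (-1.87 to -0.63). Adding RU486 gave 0.58 (0.12 to 1.03) on COR and 0.36 (-0.10 to 0.82) on ALD. The mean RU486 difference was 0.40 (0.15 to 0.65), and it did not pass the call threshold.

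Slc7a1, the arginine and lysine carrier, differed with RU486 and hardly with the ligands. Its signal in the first experiment was 7.84 with vehicle, 9.20 with CVZ, 8.21 with COR and 9.63 with ALD, and in the second 8.32, 9.04, 8.07 and 9.34 in that order. The RU486 arrays read 12.1 (RU), 13.4 (CVZ+RU), 14.8 (COR+RU) and 13.6 (ALD+RU), all above the arrays without it. The share of all probe sets so arranged was not counted. Within the second experiment alone it was 5.41%. Differences on adding RU486 were 0.58 (0.28 to 0.89) to vehicle, 0.56 (0.25 to 0.87) to CVZ, 0.86 (0.55 to 1.17) to COR and 0.52 (0.21 to 0.83) to ALD. The mean over the 4 backgrounds was 0.63 (0.46 to 0.80). A second tested probe set of Slc7a1 gave a smaller value, 0.20 (-0.04 to 0.43), with 8.23 to 9.19 on the RU486 arrays and 5.24 to 9.21 on the others, so the groups overlapped there. The mean of both probe sets gave 0.41, and the third, at 0.0824 to 0.952, was under the filter.

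Slc7a11, the cystine carrier that feeds glutathione synthesis, read 1.48 to 2.88 over all arrays. It stood at 2.03 with vehicle, 2.18 with CVZ, 2.22 with COR and 2.59 with ALD in the first experiment, and 1.59, 1.48, 1.54 and 1.96 in the second. The RU486 arrays read 2.88 (RU), 2.56 (CVZ+RU), 2.08 (COR+RU) and 2.20 (ALD+RU). They lay above the 4 other arrays of their experiment and overlapped those of the first. Adding RU486 gave 0.88 (0.32 to 1.44) on vehicle and 0.71 (0.16 to 1.27) on CVZ, while the intervals on COR, 0.39 (-0.17 to 0.94), and on ALD, 0.19 (-0.37 to 0.74), held 0. The mean RU486 difference was 0.54 (0.23 to 0.85), and it did not pass the call threshold. No ligand interval against vehicle left 0, with -0.00 (-0.44 to 0.44) for CVZ, 0.04 (-0.40 to 0.48) for COR and 0.32 (-0.12 to 0.75) for ALD.

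Slc38a2, the small neutral amino acid carrier, had the smallest mean RU486 difference of the 6. It read 75.3 to 80.4 on the 4 arrays of the first experiment, 49.0 (COR) to 72.4 (ALD) on the arrays without RU486 of the second, and 63.3 (CVZ+RU) to 74.1 (RU) on those with it. The RU486 arrays lay inside the range of the others. The mean RU486 difference was 0.19 (0.04 to 0.35), and the ligand differences were -0.09 (-0.31 to 0.13) for CVZ, -0.16 (-0.38 to 0.06) for COR and 0.12 (-0.10 to 0.34) for ALD.

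**Figure D2:**
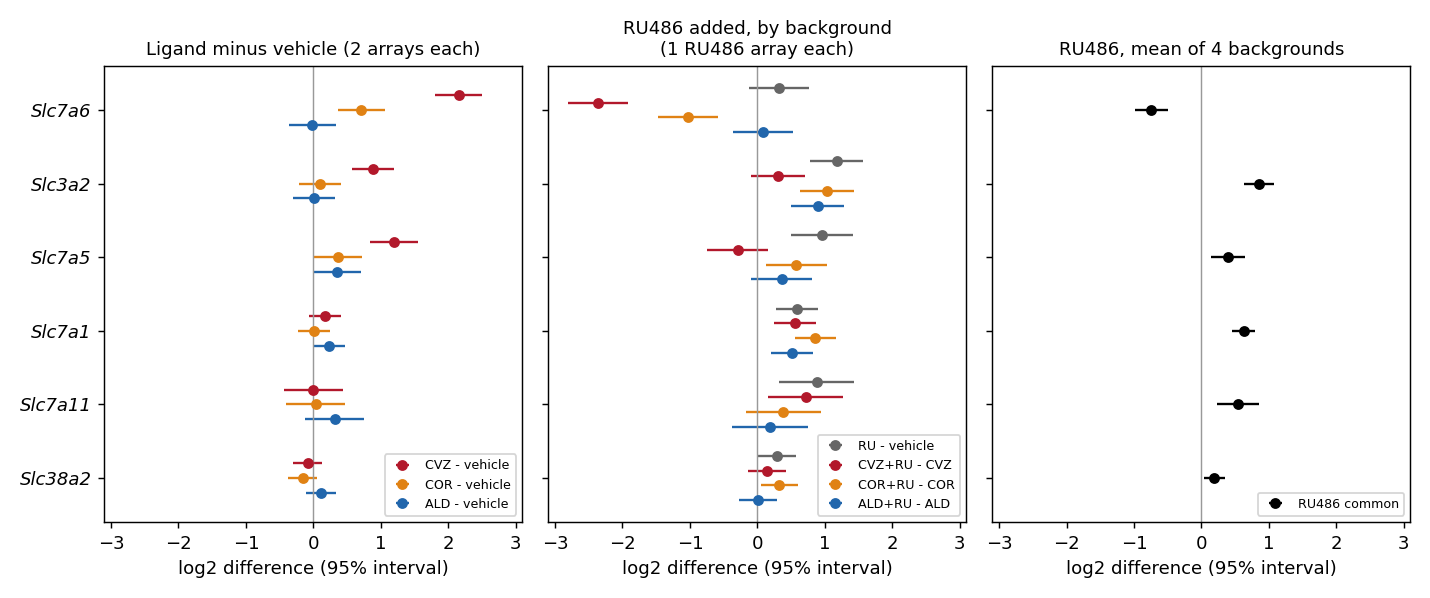
Fitted log2 differences with 95% intervals for the 6 members: each ligand minus vehicle (left), RU486 added to each background (middle) and the mean of the 4 RU486 differences (right). CVZ stood at 2.15 for Slc7a6, 1.19 for Slc7a5 and 0.88 for Slc3a2, and the mean RU486 difference was above 0 for 5 members and -0.74 for Slc7a6.

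Counted at a Benjamini-Hochberg adjusted p below 0.05 over all 18625 probe sets, CVZ against vehicle called 3 of 6 members, all higher (Slc7a6, Slc3a2 and Slc7a5). Of all probe sets 7.96% were called in that comparison and 4.77% were called higher. COR called 1 member (Slc7a6) against 3.39% of probe sets, and that call was lost when any of the 4 vehicle and COR arrays was left out. ALD called 0 against 0.95%, and the mean of the 3 ligands called 2 (Slc7a6 and Slc7a5) against 5.44%. The mean RU486 difference called 3 members, Slc3a2 and Slc7a1 higher and Slc7a6 lower, against 4.02% of probe sets in either direction and 1.85% higher. Without the CVZ+RU array, when the mean leaves out the CVZ background, the Slc7a6 value was -0.21 and its call was lost. Slc7a1 and Slc7a11 had all 4 RU486 arrays of the second experiment above the 4 without, as had 5.41% of probe sets. Slc7a11, at 0.54, stood just outside the call for RU486. These comparisons chose the members, so nothing is read from the counts. The median log2 difference of the members was 0.53 for CVZ and 0.47 for RU486, against 0.01 and 0.01 over all probe sets. All 3 calls for CVZ, and all for the ligand mean and RU486, were absent when the experiment block was left out of the fit, and the RU486 count was 1 (Slc7a1) in the second experiment alone.

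CVZ stood apart from COR and ALD in Slc7a6, Slc3a2 and Slc7a5. On the log2 scale COR stood -1.45 (-1.79 to -1.10) from CVZ for Slc7a6, -0.78 (-1.09 to -0.47) for Slc3a2 and -0.82 (-1.18 to -0.47) for Slc7a5. ALD stood -2.17 (-2.52 to -1.82), -0.87 (-1.18 to -0.55) and -0.85 (-1.21 to -0.49) from CVZ in the same order. Between ALD and COR the difference was -0.72 (-1.07 to -0.38) for Slc7a6, -0.09 (-0.40 to 0.23) for Slc3a2 and -0.02 (-0.38 to 0.33) for Slc7a5. The call threshold was passed in 6 of the 18 member comparisons, by these 3 genes for COR against CVZ and for ALD against CVZ, where 0.966% and 4.25% of all probe sets were called. None passed for ALD against COR, where 0.295% were called. The count was 0 without the experiment block and 1 without the variance trend. It was 2 without the CVZ array of the second experiment, both of Slc7a6, and 4 without the CVZ array of the first or either COR array. The CVZ arrays are among those that chose the members, and unequal doses cannot be told apart from unequal ligands here.

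Across the 12 arrays, with the experiment difference removed, Slc3a2 and its partner Slc7a5 had a Pearson r of 0.852. Slc7a1 and Slc7a11 had 0.819, Slc3a2 and Slc7a1 0.782, and Slc7a6 and Slc3a2 0.194. These are descriptions over arrays that share groups. The genes most like Slc7a6 were Ptgs2 (the inducible cyclooxygenase, r 0.98), Ift43 (0.977) and Cyth2 (0.973). Ptgs2 read 13.0 and 13.4 on the CVZ arrays and 0.608 to 3.62 on the other 10. Those most like Slc3a2 were Srfbp1 (0.936), Mthfd2 (a mitochondrial folate enzyme, 0.911) and Inip (0.91), and those most like Slc7a5 were Chd1 (0.936), Dnajc3 (0.905) and Nudt21 (0.894). For Slc7a1 they were Flcn (folliculin, a regulator of the lysosomal amino acid sensor, 0.965), Hmox1 (heme oxygenase, 0.96) and Pacc1 (0.945). For Slc7a11 they were Trib3 (an ATF4 target, 0.939), Jund (0.932) and Cars1 (0.922), and for Slc38a2 Cpne8 (0.914), Prkaa1 (0.905) and Cers6 (0.902).

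Of 42 other amino acid transporter genes listed, 37 had a probe set and 20 passed the filter. The mean of the ligands changed 2 of these 20, where 5.44% of all probe sets were called, and both rose: Slc16a10, a carrier of aromatic amino acids, by 0.74 ± 0.20 (SE, limma adjusted p = 0.046), and Slc6a17, a vesicular neutral amino acid carrier, by 0.45 ± 0.08 (limma adjusted p = 0.0017). RU486 over the 4 backgrounds also changed 2 of 20, where 4.02% of all probe sets were called, and both rose: Slc1a4 by 0.54 ± 0.09 (limma adjusted p = 0.0032) and Slc1a5 by 0.46 ± 0.11 (limma adjusted p = 0.023), which encode related carriers of small neutral amino acids. Slc1a4 read 7.84 to 8.73 on the RU486 arrays and 5.47 to 6.43 on the others, without overlap. Within the second experiment, 5.41% of all probe sets had the 4 RU486 arrays above the 4 without. The share over all arrays without RU486 was not counted. The brightest genes that did not pass were Slc38a1, Slc6a6 and Slc38a10 for the ligands (-0.15, -0.06 and 0.32) and Slc6a17, Slc38a1 and Slc6a6 for RU486 (-0.16, 0.27 and 0.23). The median of the 20 was -0.03 for the ligands and 0.07 for RU486. The ligand count was 0 without the vehicle array of the second experiment, and both counts were 0 without the block.

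**Figure D3:**
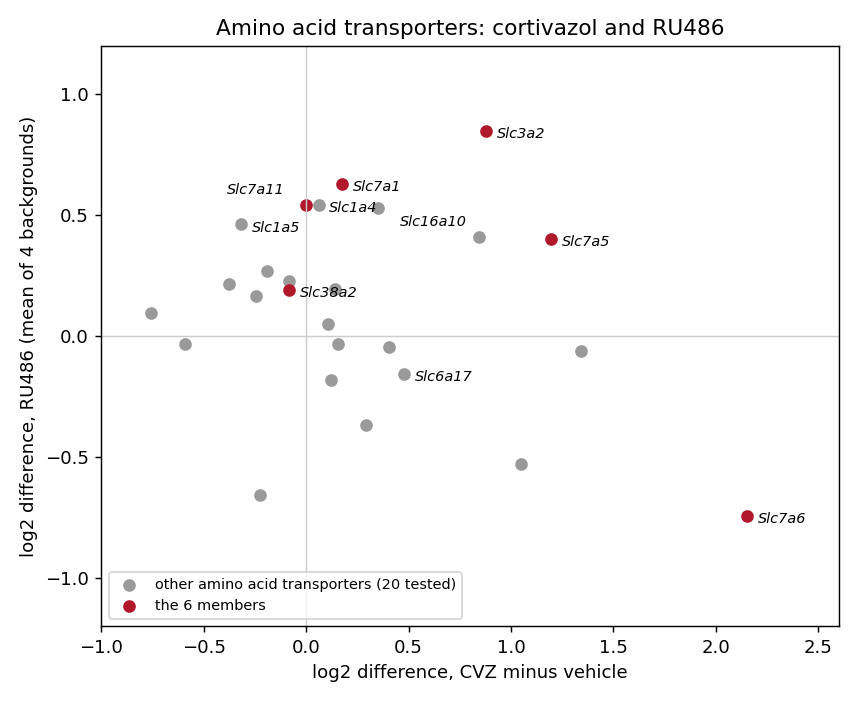
Fitted log2 difference for CVZ against vehicle (horizontal) and for RU486 over the 4 backgrounds (vertical) for the 6 members (red) and the 20 other transporters that passed the filter (grey). Slc3a2 is at 0.88 and 0.85, Slc7a6 at 2.15 and -0.74, and the called genes among the others are named. The CVZ arrays enter both axes, with opposite sign.

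Of 27 genes listed for the ATF4 amino acid response, 25 were tested with RU486, and 13 rose, 0 fell and 12 did not pass (limma, adjusted p below 0.05). This list, like the other gene lists here, was chosen with earlier results of these data known, so its count is no independent check. Of all probe sets 1.85% rose and 4.02% changed in that comparison. The median of the 25 was 0.43, against 0.01 over all probe sets. The largest were Ddit3 at 1.44 ± 0.09 (a stress transcription factor), Chac1 at 1.35 ± 0.15 (glutathione breakdown), Trib3 at 1.33 ± 0.14, Sesn2 at 0.87 ± 0.10 (a leucine sensor), Atf4 itself at 0.62 ± 0.06 and Mthfd2 at 0.61 ± 0.14, with limma adjusted p from 3.5e-07 to 0.017. Ddit3 read 14.9 to 16.7 on the 4 RU486 arrays and 4.76 to 6.79 on the other 8, and the share of all probe sets so arranged was not counted. Among the brightest that did not pass were Eif4ebp1 (0.10), Shmt2 (0.31) and Cebpb (-0.42). The ligand mean changed 2 of the 25, where 5.44% of all probe sets were called. Cebpb rose by 1.71 ± 0.13 (limma adjusted p = 5e-07) and Eif4ebp1 by 0.33 ± 0.09 (limma adjusted p = 0.040). Atf4 stood at -0.19 (-0.33 to -0.05) and Trib3 at 0.07 (-0.27 to 0.40). The RU486 count of 13 was 8 without the CVZ array of the second experiment, 5 in the second experiment alone and 1 without the block. The array medians before division were highest with RU486, and their part was not tested. Of the 10 cardiomyocyte markers 5 fell with RU486, their sum being 2007 to 2234 against 2239 to 2554 on the other arrays of that experiment, and 1 of 5 smooth muscle markers fell (sums 24.6 to 28.9 against 32.4 to 35.8). Their part was not tested either.

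**Figure D4:**
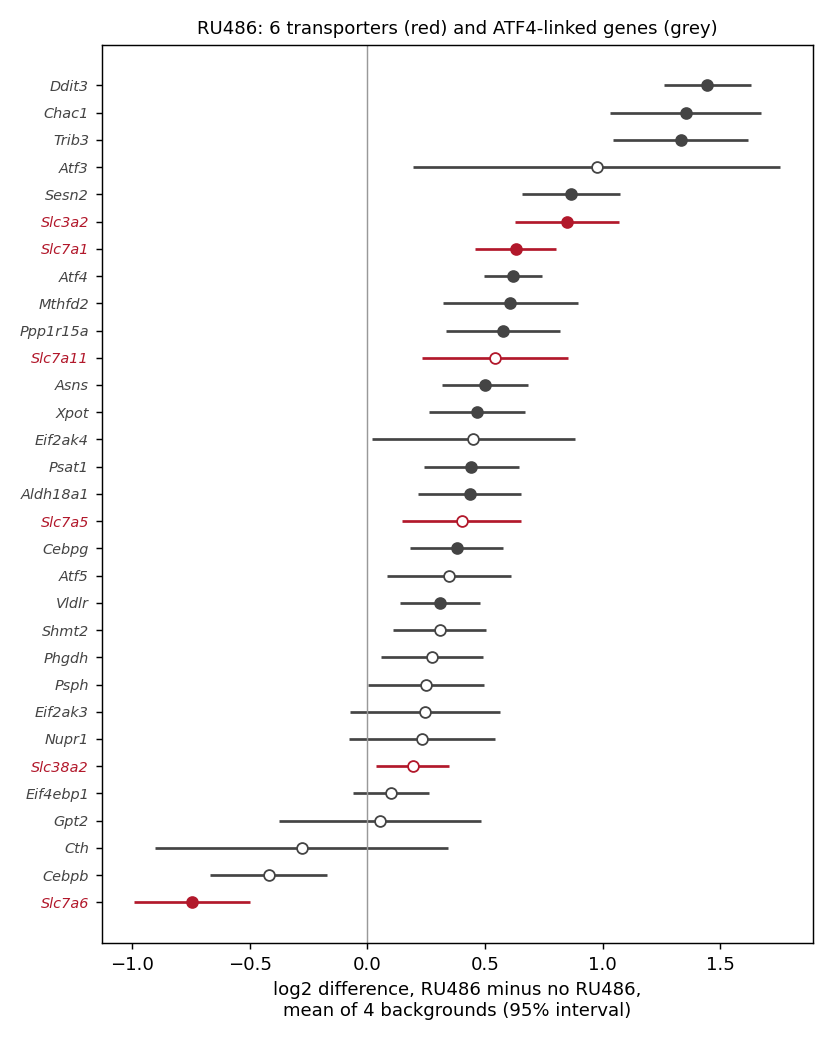
Log2 difference for RU486 over the 4 backgrounds, with 95% intervals, for the 6 members (red) and the whole list of ATF4-linked genes tested (grey), ordered by value. Filled points passed the call threshold. Slc3a2 at 0.85 and Slc7a1 at 0.63 lie between Sesn2 at 0.87 and Atf4 at 0.62, and Slc7a6 at -0.74 is the lowest of all.

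Among 28 genes of amino acid sensing and mTORC1, 26 were tested. The ligand mean changed 4 of them, where 5.44% of all probe sets were called, and all 4 rose: Sesn1 by 2.51 ± 0.08 and Ddit4 by 1.01 ± 0.10, both brakes on mTORC1, Eif4ebp1, a repressor of translation that mTORC1 inactivates, by 0.33 ± 0.09, and Rheb, the activator of mTORC1, by 0.27 ± 0.06 (limma adjusted p from 3.5e-11 to 0.040). RU486 changed 4 of 26, where 4.02% of all probe sets were called. It raised Sesn2 by 0.87, Flcn by 0.41 ± 0.07 and Fnip1, the partner of Flcn, by 0.35 ± 0.09. For Sesn1 the mean over the 4 backgrounds was -0.49 ± 0.07 (limma adjusted p from 9.1e-05 to 0.039 for these 4 genes). Sesn1 read 5.74 and 6.62 with vehicle, 23.9 to 48.1 with a ligand alone and 11.6 to 19.3 with RU486. Its RU486 arrays thus lay below the arrays with a ligand alone and above those with vehicle. Slc7a6 read 3.12 to 4.13 in the ligand groups given RU486, 4.94 with RU486 and no ligand, and 4.02 with vehicle in that experiment. Among 20 glutathione and NRF2 genes, where Slc7a11 belongs by function, 18 were tested and RU486 raised 4, against 4.02% of all probe sets called in either direction and 1.85% higher: Hmox1 by 1.05 ± 0.08, Srxn1 by 0.71 ± 0.10, Gclm (glutathione synthesis) by 0.51 ± 0.08 and Nfe2l2 (NRF2 itself) by 0.37 ± 0.07, with limma adjusted p from 3.4e-06 to 0.0034. The ligand mean changed 2 of the 18, against 5.44% of all probe sets, and raised Mgst1 by 0.51 ± 0.07 and Gpx4 by 0.23 ± 0.06 (limma adjusted p = 0.00027 and 0.044).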

How the data were processed

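Values were read from the series' table of 12 arrays. Per the submitters' processing notes the tool was MAS5. The deposited intensity values are linear and have a median of 1 on every array, so each array had been divided by its own median. Build and annotation version are not given in the sources used here. Of 31099 probe sets, 57 controls were set aside. Current symbols came from the array annotation through gene identifiers: 20826 probe sets had 1 gene, 436 several and 9780 none. To each value 0.0696 was added before log2 was taken (0.0696 is the 10th percentile of all values), so folds of low genes are understated. The 18625 probe sets above the 40th percentile of mean log2 value (signal plus pseudocount of 0.63) were tested. Fitting used lmFit and eBayes with trend from limma 3.58.1 (R 4.3.3), with 8 groups and the experiment as a block, which leaves 3 residual degrees of freedom and, with 12.2 from the prior, 15.2 in all. RU486 groups of 1 array borrow the spread of the rest. RU486 over 4 backgrounds is the mean of the 4 groups with it minus the mean of the 4 without. The block is used because the labels name the experiments. Deviations from group means correlated at 0.512 to 0.567 within an experiment, and replicates correlated at 0.946 to 0.95 with 0 identical values. The members and lists were chosen with earlier results of these data known. Named genes were all members, in each list up to 6 called genes by size and up to 3 uncalled of highest signal, the 3 genes most like each member, and Fkbp5. Genes had 1 probe set each, that of highest mean. The procedure was run on data simulated from the fit's own variances, with independent noise and no effect of single arrays. Such a run checks the code and cannot show whether the fit suits these arrays. Alternatives were the block, pseudocount, filter, scaling, trend, leaving out each array, the second experiment alone and the mean of a gene's probe sets. Arrays have no depth, and their number limits the precision.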

Additional observations from a re-analysis of the deposited data

Results flagged for a closer look

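In 6 cases a member's ligand difference from vehicle had opposite signs in the experiments, with 1 array of each group per experiment, and the difference between experiments was not tested. On the log2 scale the second experiment minus the first was -0.56 for ALD in Slc7a6 (0.26 then -0.30) and -0.64 for ALD in Slc3a2 (0.34 then -0.31). It was 0.27 for ALD in Slc38a2. The others were near 0 in both experiments: -0.11 for COR in Slc7a1, and -0.20 for CVZ and -0.17 for COR in Slc7a11. Among arrays without RU486, the second ALD array had the highest median before division, at 33.7, and the part of that was not tested.

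In 3 cases the RU486 difference on a ligand stood apart from that on vehicle, by the fit's interaction at an adjusted p below 0.05 over all probe sets. In Slc7a6 it was 0.33 on vehicle and -2.36 on CVZ, a difference of -2.69, and -1.03 on COR, a difference of -1.36. In Slc7a5 it was 0.96 on vehicle and -0.29 on CVZ, a difference of -1.25. Of all 18625 probe sets, the interaction for CVZ called 92 higher and 363 lower at that threshold. For COR it called 6 higher and 85 lower. In Slc3a2 the difference for CVZ, -0.87 (-1.41 to -0.33), had an interval without 0 and did not pass that threshold. These comparisons chose the members, so they are descriptions.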

How the results depend on the processing

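No called member changed sign. Without the replicate block, the pairing of arrays by experiment was lost and the counts of called members were 0 for the ligand mean (2 with it), 0 for CVZ (3), 0 for RU486 (3) and 0 between ligands (6). Other transporters then had 0 calls for the ligands (2) and 0 for RU486 (2), and ATF4-linked genes 1 (13). Without the variance trend the counts were 0 for the ligand mean, 0 for RU486 and 1 between ligands, with 0 and 0 for other transporters and 1 for ATF4-linked genes. The second experiment alone gave 1 member, 0 other transporters and 5 ATF4-linked genes for RU486. Other transporters had 1 ligand call with a pseudocount of 0.5 and 1 without the filter, and 4 RU486 calls with the filter at the median and 4 with trimmed-mean scaling. Leaving out each array in turn gave 1 to 3 members for the ligand mean, 3 to 4 for RU486, 2 to 6 between ligands, 0 to 2 and 1 to 3 other transporters for the ligands and RU486, and 8 to 13 ATF4-linked genes. The CVZ count stayed at 3 there. The causes were not tested, beyond fewer arrays where arrays were left out. Without an RU486 array, the RU486 mean was also taken over the remaining backgrounds only. The call of Slc7a6 for COR was lost when any of the 4 vehicle and COR arrays was left out, and for RU486 without the CVZ+RU array (-0.21). Over all probe sets CVZ called 889 higher and 594 lower, 838 and 775 after quantile normalization and 782 and 807 after trimmed-mean scaling. For RU486 the splits were 345 and 403, 423 and 393, and 408 and 447. No scaling moved the median of all probe sets by over 0.1 or turned a called member. Slc7a11 and Slc7a5 had the largest standard errors of the members for a ligand against vehicle (0.21 and 0.17).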
